A study of Mus musculus with 4 samples.

Results

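The Lypd1 and Lmo3 spots were 720 of the 13452 kept spots of 4 coronal brain sections measured by Visium-FFPE, and their working name was olfactory cortex and amygdala. Each kept spot was scored by the mean, over Lypd1, Lmo3, Cyp26b1, Hrk, Kcng1, Syt17 and Plxnd1, of the natural logarithm of 1 plus the unique molecular identifiers (UMIs) of the gene per 10000 UMIs of the spot, and the 180 highest spots of each section were taken. Because the expression of these 7 genes chose the spots, their excess over the rest of the section is a description and was not tested. A spot is a small area of tissue that holds several cells or parts of cells, so a spot is named here by its leading genes and not by a cell type.

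In this assay, probe pairs that bind RNA in fixed tissue are captured on a grid of barcoded spots, in which each spot has 6 neighbours. All sections came from wild-type male C57BL/6J offspring at postnatal day 21, whose mothers received a folic acid (FA) diet from 2 weeks before mating until the end of lactation. The MF group (median folate in the labels, 2 mg/kg FA) and the HF group (high folate, 20 mg/kg FA) had 2 sections each, cut at 5 µm from blocks of different animals. The sources used here do not say whether these animals shared a mother, and p-values then measure the spread between sections of this kind. In each list of values below, the sections stand in the order MF replicate 1, MF replicate 2, HF replicate 1 and HF replicate 2.

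The olfactory cortex receives direct input from the olfactory bulb and forms a simple layered cortex along the ventral and lateral rim of the forebrain, whose superficial cells receive bulb axons and whose deeper cells carry much of the output. The cortical and basolateral parts of the amygdala lie just inside and below it, are built largely of glutamatergic neurons, and serve the learning of odour and threat associations. Several of the chosen genes act in pathways that also pattern this tissue. Cyp26b1 breaks down retinoic acid, Plxnd1 is the receptor of the guidance cue encoded by Sema3e, and Lypd1 encodes a membrane-anchored protein of the Ly6 family that modulates nicotinic acetylcholine receptors.

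The sections differed in depth and in where the chosen spots lay. The spots held 3299301, 2224313, 1173964 and 2435023 UMIs in all, with medians of 17267, 11717, 6001 and 11798 UMIs per spot against 23982, 12105, 9547 and 11832 in the other spots of the same sections. HF replicate 1 was the shallowest, and the Lypd1 and Lmo3 spots of that section were shallower still. The score of the 180th spot was 0.910, 0.983, 0.931 and 0.805, and that of the spot after it was 0.909, 0.980, 0.930 and 0.804, so the limit cut through a continuous range. Between 71 and 105 spots of a section lay within 0.05 of it. The median score was 1.05, 1.13, 1.09 and 0.921 in the chosen spots and between 0.353 and 0.407 in the others. Sections shared 2647 to 3104 barcodes, which name positions of the array and not cells.

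**Figure D1:**
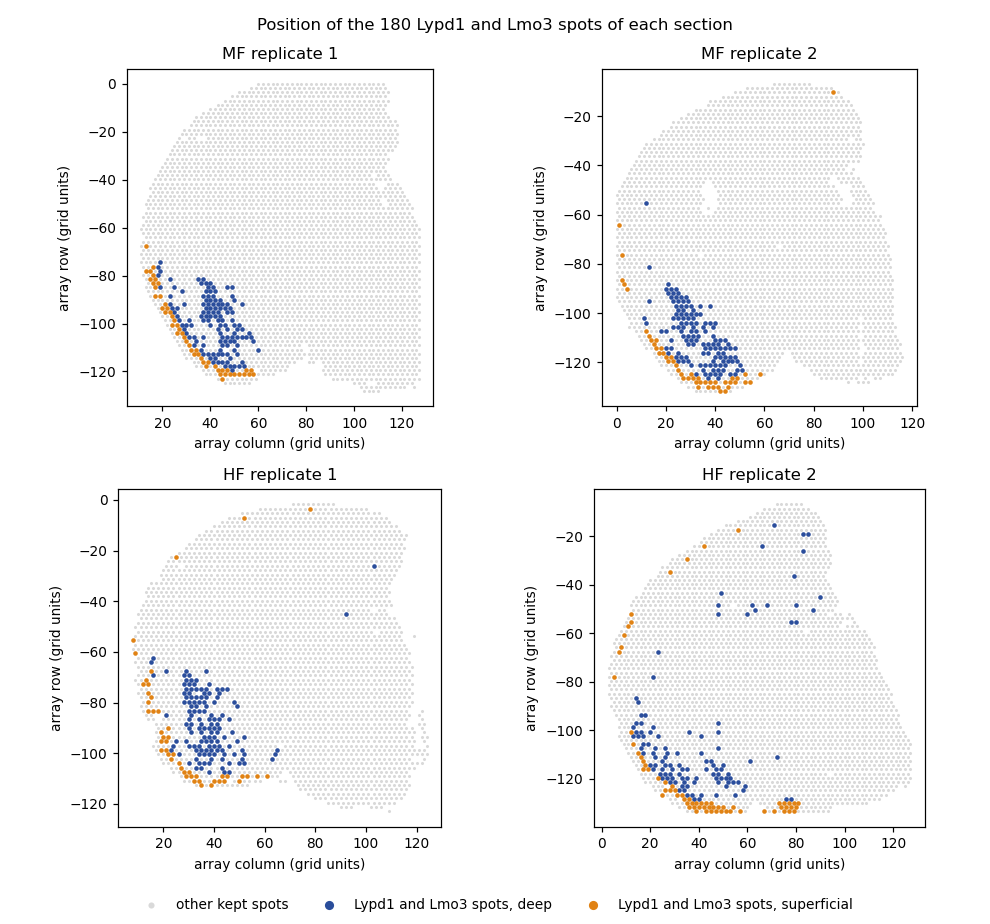
Position of the 180 Lypd1 and Lmo3 spots in each of the 4 sections, with array column and row on the axes in grid units, with neighbours in a row 2 units apart. Blue points are deep spots, orange points are superficial spots and grey points are all other kept spots. In MF replicate 1, MF replicate 2 and HF replicate 1 an inner block and an outer band lie at the ventrolateral rim, while HF replicate 2 also holds spots scattered over the dorsal part of the section.

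Positions on the array were not used to choose the spots, yet the spots lay together. Of the neighbours of a Lypd1 and Lmo3 spot, 56.5%, 56.3%, 44.8% and 41.0% were of the same kind, where such spots made up 5.0% to 5.63% of a section. The largest connected group held 151, 102, 50 and 65 spots, and 9, 10, 23 and 38 spots had no neighbour of their kind. The part of the section ventral to the median spot held 96.7%, 95.6%, 92.8% and 70.0% of them. All of these also lay lateral to the median spot, in a corner that held 24.2% to 25.3% of all kept spots. The side that held the median Lypd1 and Lmo3 spot was taken as lateral, so their lateral place was set in part by these spots themselves. HF replicate 2 thus stood apart in position, with 54 connected groups against 14, 17 and 39 in the other sections.

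Counted in grid steps from the outer edge of the tissue, the median Lypd1 and Lmo3 spot lay 6, 7, 8 and 4.5 steps inside, and the median of all spots was 9 in each section. Spots within 3 steps of the edge are called superficial and the rest deep. There were 50, 48, 47 and 67 superficial and 130, 132, 133 and 113 deep spots. In MF replicate 2 and HF replicate 2 the tissue ran off the array, and when the border of the array was not taken as an edge 43 and 35 spots were superficial.

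The leading gene of the rule was Cyp26b1 (chr6:84571414-84593908, minus strand of GRCm38), at 101.5, 103.4, 89.4 and 48.9 CPM (its share of the summed UMIs, scaled to a common total) in the Lypd1 and Lmo3 spots and at 12.7, 11, 9.32 and 9.26 CPM in all other spots. Lypd1 (chr1:125867622-125913101, minus strand) had 765.0, 1133, 1326 and 462.8 CPM there against 153.5, 176.5, 164.9 and 134.2 CPM elsewhere. Lmo3 (chr6:138362918-138581968, minus strand), a LIM-only cofactor of transcription, had 498.3, 513.4, 423.4 and 368.8 CPM against 103.5, 99.7, 78.6 and 89.8 CPM. HF replicate 2 had the lowest level of these 3 genes in the chosen spots. Cyp26b1 was 2.97 ± 0.40 (SD, n = 4 sections) above the other spots on the log2 scale, Lypd1 2.45 ± 0.52 and Lmo3 2.27 ± 0.17.

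The other 4 genes of the rule had smaller ratios. Kcng1 (chr2:168260117-168281736, minus strand), a potassium channel subunit that is silent alone and modifies partners, stood 2.07 ± 0.23 above the other spots on the log2 scale. Hrk (chr5:118164648-118189478, plus strand), a pro-apoptotic protein of the Bcl-2 family, stood 1.82 ± 0.24 above them, and Plxnd1 (chr6:115954811-115995005, minus strand) 1.82 ± 0.19. Syt17 (chr7:118380717-118448222, minus strand), an atypical synaptotagmin, was 1.77 ± 0.12 above them. All 7 genes had at least 1 UMI in 52, 37, 7 and 11 of the 180 spots, so single spots of the shallow HF replicate 1 were chosen on fewer detected genes.

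Genes outside the rule were higher in the same spots, and these levels too are a description. Among 11377 genes with a mean of at least 5 CPM, 20.8% were above the other spots in all 4 sections and 30.5% were below. Ccn3, a matricellular signalling protein, had 531.3, 574.6, 523.0 and 350.7 CPM against 131.7, 142.7, 124.9 and 107.0 CPM elsewhere. Slc30a3, which loads zinc into synaptic vesicles of glutamatergic neurons, had 468.9, 461.7, 483.8 and 411.9 CPM against 118.5, 124.9, 128.9 and 115.1 CPM. Their mean log2 ratios were 1.95 ± 0.16 and 1.90 ± 0.06, close to those of the chosen genes. Slc30a3 had the most even ratio of the genes given here.

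The remaining leading genes outside the rule, among those with at least 20 CPM in these spots of every section, were Plk5, Dpyd, Cdkl4, Nptxr, Ndst4, Tafa1, Rasgef1c, Rprm, Bmp3, Hpcal1 and Crym. Their mean log2 ratios ranged from 1.79 (Plk5, a polo-like kinase of neurons) to 1.43 (Crym, a thyroid hormone binding protein of cortical neurons). Nptxr, the neuronal pentraxin receptor of excitatory synapses, had 1115, 973.3, 902.9 and 966.7 CPM against 376.2, 333.7, 292.7 and 387.5 CPM. Tafa1, a secreted chemokine-like protein, had 200.3, 223.0, 193.4 and 222.2 CPM against 78.0, 75.2, 68.7 and 74.8 CPM. In none of these genes did the 4 sections of the chosen spots overlap with the 4 values of the other spots, which follows largely from their choice by a high ratio.

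**Figure D2:**
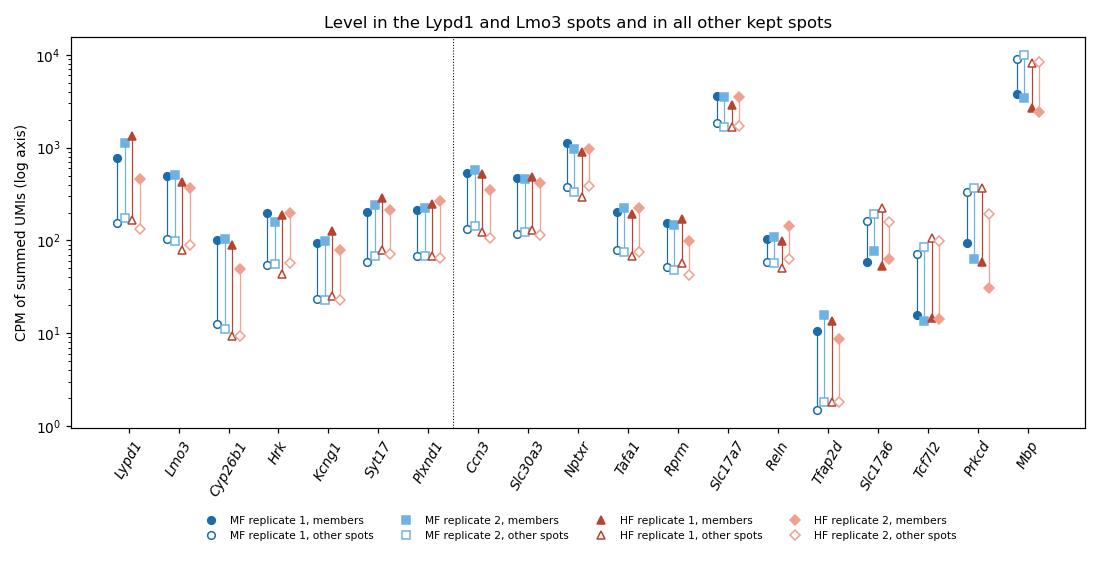
CPM of summed UMIs (log axis) in the Lypd1 and Lmo3 spots (filled) and in all other kept spots (open) of each section, joined by a line. The 7 genes left of the dotted line chose the spots. Right of it Ccn3, Slc30a3, Nptxr, Tafa1, Rprm, Slc17a7, Reln and Tfap2d are higher, and Slc17a6, Tcf7l2, Prkcd and Mbp lower, in the chosen spots of all 4 sections.

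The marker lists matched the name in part. Of 12 genes of telencephalic glutamatergic neurons 10 were higher in all 4 sections and 1 was lower. Their median log2 ratio was 0.48 beside -0.05 over all genes, of which 20.8% were higher and 30.5% lower. Slc17a7, the vesicular glutamate transporter of cortical neurons, had 3640, 3547, 2897 and 3484 CPM against 1846, 1659, 1670 and 1699 CPM. Slc17a6, the transporter of thalamic and hypothalamic neurons, was at 58.5, 76.9, 53.7 and 63.2 CPM against 162.7, 190.9, 224.7 and 156.2 CPM. The transporter of the cortex was thus the higher and that of the diencephalon the lower in these spots of every section.

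Of 15 genes of the olfactory cortex list, 9 were higher and 5 lower in all 4 sections, with a median of 0.47. The shares over all genes were 20.8% higher and 30.5% lower. Reln, the secreted positioning signal reelin that is made by superficial olfactory neurons, had 104.9, 109.2, 98.0 and 143.7 CPM against 57.9, 56.8, 50.4 and 63.6 CPM. Rxrg, a nuclear retinoid receptor, stood 1.30 ± 0.50 above on the log2 scale, Unc5d and Lhx2 0.75 and 0.62 above. The 5 lower genes of that list were Trh, Calb2, Ntng1, Pcp4 and Cux1.

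The basolateral and cortical amygdala list did not follow its name as a whole. Of its 15 measured genes 5 were higher and 8 lower in all 4 sections, beside 20.8% and 30.5% of all genes. The median was -0.43. Its highest member, Tfap2d, a transcription factor of the AP-2 family, had 10.6, 15.7, 13.6 and 8.62 CPM against 1.49, 1.82, 1.80 and 1.80 CPM, a mean log2 ratio of 2.78 ± 0.37. Cdh9, a cadherin, stood 1.11 ± 0.44 above, and Otof, a calcium sensor of vesicle release, 1.14 ± 0.58. The lower genes included Slc17a6, Sema3e, Sema5a and Baiap3. In the list of the central, medial and intercalated amygdala 2 of 19 genes were higher and 8 lower, with a median of -0.33, and in that of claustrum and endopiriform nucleus 3 of 10 were higher and 4 lower.

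Of the layer 2-3 genes of the isocortex 7 of 10 were higher in all 4 sections, with a median of 0.43, and 12, 11, 13 and 22 of the 180 spots were among the 180 highest spots of that list in their section. Thalamic genes were lower in 10 of 10 (median -2.12), hypothalamic genes in 11 of 15 (median -1.79) and myelin genes in 20 of 20 (median -1.55). For these 3 lists, 0 of the 720 spots were among the 180 highest of their section. The shares over all genes were 20.8% higher and 30.5% lower. Of the olfactory cortex list 16, 14, 9 and 10, and of the amygdala list 8, 6, 7 and 2, of the 180 spots were among the 180 highest of their section. These are 8.89%, 7.78%, 5.0% and 5.56% for the olfactory cortex list and 4.44%, 3.33%, 3.89% and 1.11% for the amygdala list, beside 5.0% to 5.63% of all spots. By the olfactory cortex list the spots of both HF sections were thus near the share of all spots, and by the amygdala list those of all 4 sections were below it. The lists place the spots among glutamatergic telencephalic tissue, and neither part of the working name is borne out by them in every section. They are therefore called the Lypd1 and Lmo3 spots.

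Deep and superficial spots differed in many genes, and this comparison rests on position, which the rule did not use. UMIs were summed over deep and over superficial spots of each section and compared with the quasi-likelihood test of edgeR, with the section as a block. Calls needed a difference of at least 1.2-fold and a Benjamini-Hochberg adjusted p under 0.05. Of 10278 genes tested, 447 (4.35%) were higher in deep and 387 (3.77%) in superficial spots. Of these, 245 and 230 had 4 deep values that did not overlap with the 4 superficial values. This count uses the same values as the test and adds no separate support. In bulk sums such as these, fewer cells of a type and less RNA per cell cannot be told apart.

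Deep spots were led by Fezf2 (chr14:12342094-12348189, minus strand), a transcription factor of corticofugal projection neurons. It had 50.4, 50.7, 55.2 and 47.4 CPM in deep spots and 2.64, 13.8, 5.88 and 5.99 CPM in superficial spots, a log2 fold change of 2.91 (SE 0.26, adjusted p = 1.62e-11, edgeR). Grp, which encodes gastrin-releasing peptide, had 50.9, 66.7, 100.7 and 16.6 CPM against 7.04, 8.27, 5.88 and 6.84 CPM (2.74, SE 0.26, adjusted p = 4.67e-11, edgeR). Myl4, a myosin light chain, had 85.1, 96.1, 56.4 and 100.4 CPM against 15, 13.8, 20.6 and 13.7 CPM (2.58, SE 0.18, adjusted p = 2.81e-14, edgeR). In all 3 genes the deep values of every section lay above the superficial values, and HF replicate 2 had the lowest deep level of Grp but not of Myl4.

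The other called genes with the largest excess in deep spots and separate sections were Npsr1 (2.82), the receptor of neuropeptide S, Adamtsl1 (2.50), a secreted matrix protein, Ptprc (2.42), Htr1f (1.75), Rspo2 (1.74) and Sema3e (1.71), with log2 fold changes in parentheses. Ptprc encodes CD45, the phosphatase of leukocytes, and had 26.8, 23.4, 32.4 and 10.3 CPM in deep spots against 3.52, 2.76, 5.88 and 4.28 CPM. Rspo2 is an enhancer of Wnt signalling and had 27.3, 24.0, 19.2 and 23.7 CPM against 7.92, 6.89, 0 and 9.41 CPM. Cyp26b1, a gene of the rule, would stand among them, with 149.4, 149.4, 121.1 and 60.8 CPM in deep and 10.6, 8.27, 11.8 and 35.9 CPM in superficial spots.

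Superficial spots were led by Igfn1, an immunoglobulin and fibronectin domain protein, with 58.0, 38.6, 32.4 and 71.8 CPM against 17.1, 10.7, 2.4 and 22.1 CPM in deep spots (log2 fold change -1.85, SE 0.20, adjusted p = 1.47e-09, edgeR). Plk5 had 99.4, 111.7, 82.4 and 57.3 CPM against 25.9, 36.0, 34.8 and 25.3 CPM (-1.58, SE 0.15, adjusted p = 7.32e-11, edgeR). Dpyd, the first enzyme of pyrimidine breakdown, differed by -1.37. Both Plk5 and Dpyd were among the genes that marked the Lypd1 and Lmo3 spots as a whole, and within them they were higher towards the surface. The other named genes were Sla (-1.57), an adaptor of receptor signalling, Cdhr1 (-1.42), a cadherin, Reln (-1.40), Tmem132e (-1.34), Prkg2 (-1.33), a cyclic GMP-dependent kinase, the predicted gene Gm35339 (-1.31) and Itga4 (-1.27), an integrin subunit.

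Reln and Dab1 were higher near the surface, of which Dab1 was picked after its values were seen. Reln (chr5:21884454-22344702, minus strand) had 186.5, 176.5, 188.3 and 206.1 CPM in superficial and 62.0, 76.7, 61.1 and 86.1 CPM in deep spots (SE 0.10, adjusted p = 6.39e-14, edgeR). Dab1, the adaptor that carries the reelin signal into the cell, had 140.7, 137.9, 144.1 and 120.6 CPM against 58.3, 52.7, 58.8 and 75.9 CPM (-1.13, SE 0.12, adjusted p = 1.13e-09, edgeR). Ligand and adaptor were separate between the 2 places in all 4 sections. Nrp2, a co-receptor of class 3 semaphorins, differed by -1.23, Unc5d, a netrin receptor, by -0.89, and the transcription factors Neurod1 and Tbr1 by -0.87 and -0.68. Slc30a3 had 689.5, 681.0, 729.5 and 499.4 CPM in superficial and 352.9, 355.6, 383.7 and 331.1 CPM in deep spots (-0.85, SE 0.07, adjusted p = 1.76e-12, edgeR).

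The olfactory cortex list was divided by depth, with 5 of its 14 tested genes called higher in deep and 6 in superficial spots, beside 4.35% and 3.77% of all genes. The deep genes were Fezf2, Rxrg (1.57), Sstr2, Calb2 and Pcp4, and the superficial genes were Reln, Nrp2, Unc5d, Tbr1, Lhx2 and Cux1. The amygdala list leaned to the deep spots, with 8 of 15 called higher there (Grp, Rspo2, Sema3e, Sema5a, Dkk3, Nr2f2, Rorb and Cdh9) and 1 called higher in superficial spots (Otof, -0.90), and its median log2 fold change was 0.69 beside 0.00 over all genes. Tfap2d, the amygdala gene with the largest excess over the rest of the section, had 11.1, 16.7, 15.6 and 7.90 CPM in deep and 9.67, 13.8, 8.83 and 9.41 CPM in superficial spots. Its difference of 0.20 (SE 0.31) did not pass the test. Of 10 layer 2-3 genes 0 were called higher in deep and 2 in superficial spots. Some other lists leaned to the deep spots as well. Of the central, medial and intercalated amygdala list 5 of 16 were called higher in deep and 2 in superficial spots (median 0.45). These counts were 3 and 0 of 9 for the hippocampus list (median 0.35) and 3 and 1 of 9 for layer 5 and 6 (median 0.14).

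**Figure D3:**
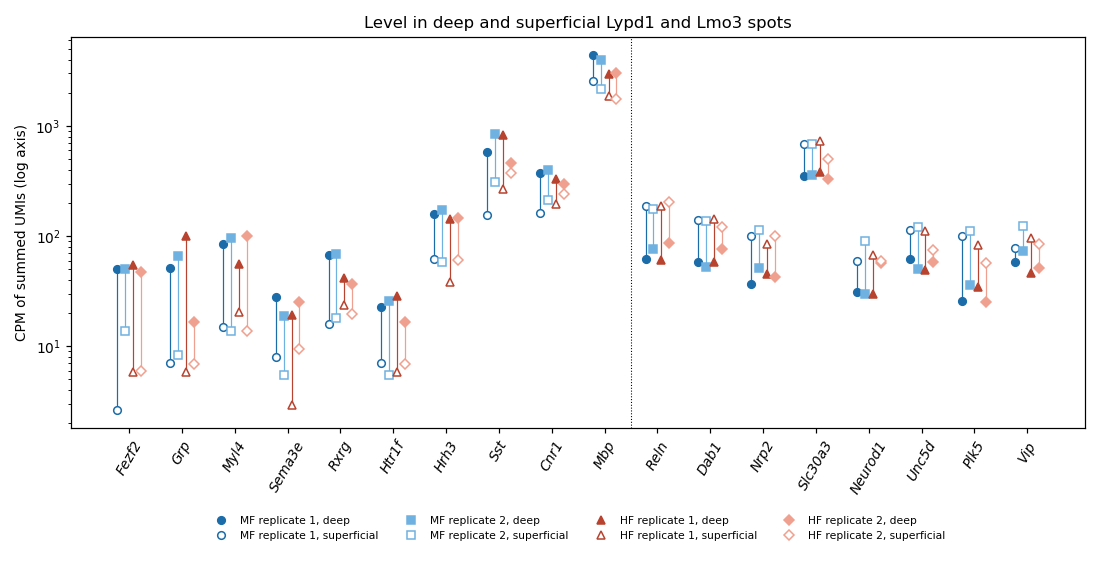
CPM of summed UMIs (log axis) in deep spots, more than 3 grid steps from the tissue edge (filled), and in superficial spots (open), joined by a line for each of the 4 sections. The 10 genes left of the dotted line are higher in deep spots of all 4 sections. Of those right of it Neurod1 in HF replicate 2 differs least, with 56.9 CPM in deep and 59.9 CPM in superficial spots.

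Several semaphorin, plexin and neuropilin genes differed by depth. The receptor gene Plxnd1 had 293.8, 324.0, 379.5 and 315.5 CPM in superficial and 167.9, 178.8, 195.4 and 222.0 CPM in deep spots, given as a description since the rule used it. Sema3e (chr5:14025276-14256689, plus strand), which encodes its ligand, had 28.2, 18.7, 19.2 and 25.3 CPM in deep against 7.92, 5.51, 2.94 and 9.41 CPM in superficial spots (1.71, SE 0.29, adjusted p = 3.59e-05, edgeR). Leaving out Plxnd1, of 19 tested genes of these families 2 were called higher in deep spots, the other being Sema5a (0.85). In superficial spots 3 were called higher, which were Nrp2, Plxnc1 (-0.70) and Plxna2 (-0.35). Over all genes 4.35% were called higher in deep and 3.77% in superficial spots. Against the rest of the section, 5 of 24 genes of this family were higher in the Lypd1 and Lmo3 spots and 15 were lower in all 4 sections. Plxnd1, which the rule used, is counted among the higher ones. Of all genes 20.8% were higher and 30.5% lower. Sema3e was among the lower ones, by 1.1 ± 0.30 on the log2 scale.

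Among genes that handle retinoic acid, the receptor gene Rxrg was higher in the deep spots. It had 67.5, 68.7, 42.0 and 37.1 CPM in deep and 15.8, 17.9, 23.5 and 19.7 CPM in superficial spots (SE 0.20, adjusted p = 1.16e-07, edgeR). Cyp26b1 was used by the rule, and of the other 15 tested genes of the pathway Rxrg was the 1 called higher in deep spots, while edgeR called 0 higher in superficial spots. Over all genes 4.35% were called higher in deep and 3.77% in superficial spots. Rxrg and Cyp26b1 were also above the rest of the section, while Aldh1a1, which makes retinoic acid, was 0.84 ± 0.36 below it. Of 17 measured genes of the pathway 3 were higher, with Cyp26b1 of the rule among them, and 8 lower than elsewhere in all 4 sections. Of all genes 20.8% were higher and 30.5% lower.

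The remaining genes of the rule did not share a depth. Kcng1 had 123.9, 123.4, 148.7 and 105.1 CPM in deep and 39.6, 45.5, 76.5 and 49.6 CPM in superficial spots. Hrk had 292.0, 224.7, 258.9 and 240.3 CPM in superficial and 145.2, 128.8, 159.5 and 156.5 CPM in deep spots. Lmo3 was the higher in superficial spots, with 660.5, 672.8, 485.4 and 499.4 CPM against 413.0, 436.3, 398.1 and 248.1 CPM, and Lypd1 the higher in deep spots, with 863.4, 1318, 1589 and 492.3 CPM against 577.8, 751.4, 682.5 and 431.0 CPM. The fitted difference of Syt17 was 0.04 on the log2 scale. The 7 genes that chose the spots thus fell into 3 higher in deep spots, 3 higher in superficial spots and 1 with a difference near 0. This split is a description, since the rule used these genes. A spot was chosen by their mean, so a spot low in some of them had to be high in others. Of 6 other tested LIM-only genes and their partners, Lmo4 (0.72) and Ldb2 (1.16), a LIM domain binding protein, were called higher in deep spots. Lhx2 (-0.44), a LIM homeobox transcription factor, was called higher in superficial spots. Over all genes 4.35% were called higher in deep and 3.77% in superficial spots.

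Of 16 tested interneuron genes, 8 were called higher in deep spots and 1 lower, beside 4.35% and 3.77% of all genes. Sst, the peptide somatostatin, had 584.1, 839.9, 826.1 and 457.5 CPM in deep and 155.7, 308.8, 267.7 and 373.7 CPM in superficial spots (1.26, SE 0.12, adjusted p = 8.60e-11, edgeR). Cnr1, the cannabinoid receptor of axon terminals, differed by 0.79, the peptides Npy and Cck by 0.96 and 0.75, the calcium buffer Pvalb by 0.68, and Gad1 and Gad2, which make GABA, by 0.58 and 0.56. Vip, the peptide of another class of interneuron, was the exception, with 78.3, 124.1, 97.1 and 85.5 CPM in superficial and 57.8, 74.1, 46.8 and 51.4 CPM in deep spots (-0.68). Of 35 tested receptors for neuromodulators and steroids 4 were called higher in deep spots, which were the serotonin receptors Htr1f (1.75) and Htr1b (1.64), Cnr1 and Sstr2. The neurotensin receptor Ntsr1 (-1.10) was the 1 called lower. Of all genes 4.35% were called higher and 3.77% lower. The median of that list was 0.00, with 17 of 35 positive. The histamine receptor Hrh3 (1.45), which is on no list and was picked after its values were seen, was also called higher in deep spots.

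Myelin genes were higher in deep spots. Of 20 myelin genes 18 were called higher in deep spots and 0 lower, beside 4.35% and 3.77% of all genes. The summed level of the list was 13473, 11933, 8888 and 9450 CPM in deep and 7553, 6555, 5695 and 5706 CPM in superficial spots. The Mbp level, myelin basic protein, differed by 0.79 (SE 0.05, adjusted p = 1.36e-14, edgeR). Of the microglia list 5 of 10 and of the astrocyte list 5 of 13 were called higher in deep spots, and of vessels and meninges 0 of 11 higher and 2 lower. The part of these cells in the differences of the neuronal genes, and of Ptprc, was not tested.

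The number of calls depended on the limits used. It was 834 in all, and 348 without MF replicate 1, 497 without MF replicate 2, 219 with DESeq2, 245 with spots thinned to 5000 UMIs and 387 with no section block. With deep spots taken as more than 2 steps from the edge it was 125, and Sla then had a difference of 0.08.

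**Figure D4:**
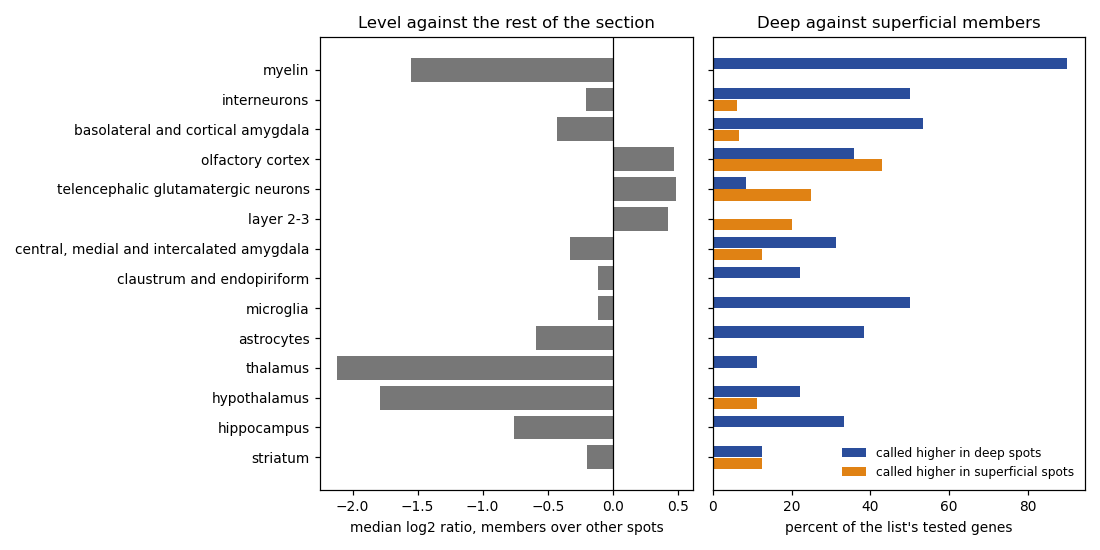
Left, the median log2 ratio of Lypd1 and Lmo3 spots over all other spots for 14 marker lists. Right, the percent of each list's tested genes called higher in deep (blue) or in superficial spots (orange). Glutamatergic, olfactory cortex and layer 2-3 lists are above 0 on the left, and 18 of 20 myelin genes are called in deep spots on the right.

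The study asks whether excess maternal FA changes gene expression in regions of the offspring brain. In the Lypd1 and Lmo3 spots the activity-induced gene Arc was higher and the hypothalamic peptide gene Hcrt lower in the HF group. They were the 1 gene (0.00871%) called higher and the 1 (0.00871%) called lower of 11479 tested. In this comparison 703 genes had an unadjusted p under 0.05. The same test called 0 of 14919 genes in all other spots (1025 with an unadjusted p under 0.05). In 180 layer 2-3 spots per section it called 20 of 11424. These were the highest spots by the layer 2-3 list, scored like the rule, after the Lypd1 and Lmo3 spots were left out. That list shares Wfs1 with the hippocampus list, and whether these spots lay in layer 2-3 was not tested. An exact test of a single gene cannot reach 0.05 with 2 sections a group, so the adjusted p-values draw on a spread that edgeR pools over genes.

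The gene called higher was Arc (chr15:74669083-74672570, minus strand), whose activity-induced transcript encodes a synaptic protein. It had 23.9, 21.6, 70.7 and 54.2 CPM in the Lypd1 and Lmo3 spots, so both HF sections lay above both MF sections (log2 fold change 1.40, SE 0.19, adjusted p = 0.0284, edgeR). In the other spots it had 52.2, 48.2, 105.5 and 78.0 CPM. The diet difference of Arc was 0.59 (SE 0.17) larger on the log2 scale in the Lypd1 and Lmo3 spots than in the other spots, which did not pass the test (adjusted p = 0.928, edgeR). In the layer 2-3 spots Arc was also called higher in the HF group, with a log2 fold change of 1.42 (adjusted p = 0.00798, edgeR). Of 27 activity-induced genes tested 25 had a positive difference, as did 50.6% of all genes, and 1 was called, and their median log2 fold change was 0.35 beside 0.38 in the other spots and 0.57 in layer 2-3 spots.

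Egr1, an immediate early transcription factor, had 49.4, 74.2, 128.6 and 418.5 CPM in the Lypd1 and Lmo3 spots and 49.0, 57.1, 157.0 and 334.7 CPM in the others. Its log2 fold change of 2.23 (SE 0.36, adjusted p = 0.0679, edgeR) did not pass the threshold, and HF replicate 2 had over 3 times the level of HF replicate 1. Nr4a1, an orphan nuclear receptor, had 35.2, 38.7, 55.4 and 60.4 CPM, and Dusp6, a phosphatase that limits MAP kinase signalling, had 44.9, 50.4, 69.0 and 79.7 CPM. In both, the HF sections lay above the MF sections, with fitted differences of 0.67 and 0.67 that did not pass the test (adjusted p = 0.331 and 0.295, edgeR).

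The gene called lower was Hcrt (chr11:100761069-100762931, minus strand), which encodes the hypothalamic peptide orexin. It had 23.3, 13.9, 2.56 and 0.411 CPM, from 77, 31, 3 and 1 UMIs (log2 fold change -4.04, SE 0.57, adjusted p = 0.0284, edgeR). The other spots had 78.5, 84.5, 65.9 and 0.225 CPM, so the transcript was near 0 in HF replicate 2 as a whole, and that section stood apart in position as described above. Pmch, another lateral hypothalamic peptide, had 241.0, 114.6, 51.1 and 0.411 CPM in the Lypd1 and Lmo3 spots and 705.4, 518.2, 330.0 and 0.724 CPM in the others. In 13 tested genes of the hypothalamus list the median log2 fold change was -0.85, and -0.15 without HF replicate 2. Which part of the hypothalamus a section held cannot be told apart from the diet.

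Myelin genes had negative differences in the HF group, and none passed the test of edgeR. In all 20 the difference was negative, 15 had an unadjusted p under 0.05, and 0 were called by edgeR. Of all 11479 genes 50.6% had a positive difference and 703 had an unadjusted p under 0.05. The myelin median was -0.47 beside -0.28 in the other spots and -0.44 in layer 2-3 spots. Mal, a myelin membrane proteolipid, had 521.9, 459.5, 296.4 and 292.0 CPM (-0.74, SE 0.12, adjusted p = 0.0548, edgeR). It passed in 8 of 16 alternatives, among them DESeq2 (adjusted p = 0.00998) and the replicate block (adjusted p = 0.00186, edgeR), and over the 16 the adjusted p ranged from 4.71e-09 to 0.616. Mbp had 3769, 3406, 2667 and 2430 CPM (-0.50, SE 0.10, adjusted p = 0.144, edgeR). The HF sections were below the MF sections in both genes, and the median of the list stayed negative without any 1 section, from -0.58 to -0.39.

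Of 23 genes of folate and one-carbon metabolism 0 were called by edgeR in either direction and 0 had an unadjusted p under 0.05, with a median of -0.06. For the genes of the rule no test of diet is given, since each section gave the same number of spots by their level, and their median fitted difference was 0.03. Of 15 genes of the olfactory cortex list and 15 of the amygdala list 0 were called, with medians of -0.10 and -0.17, and 2 in each list had an unadjusted p under 0.05.

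**Figure D5:**
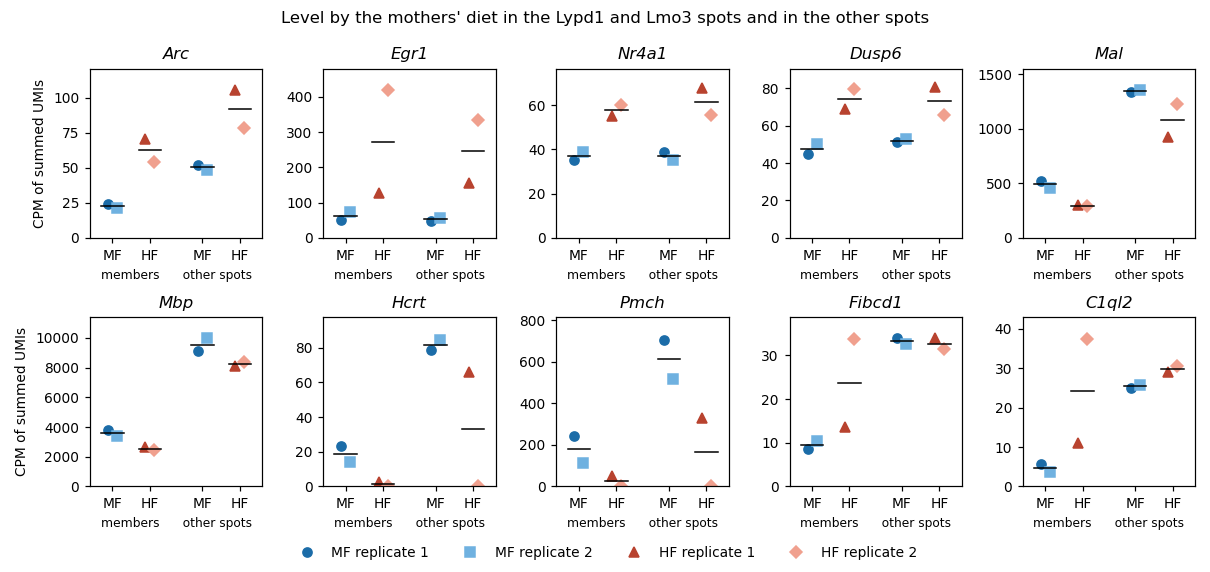
CPM of summed UMIs of 10 genes in the Lypd1 and Lmo3 spots (left pair of each panel) and in the other spots (right pair) of the 2 MF and 2 HF sections, with black bars at the group means. Both HF sections lie above both MF sections in the Lypd1 and Lmo3 spots for Arc, Egr1, Nr4a1 and Dusp6 and below them for Mal, Mbp, Hcrt and Pmch, and Fibcd1 and C1ql2 are highest there in HF replicate 2.

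Whether the diet difference in these spots differed from that elsewhere was tested as a diet by place term. Against the other spots 0 of 14485 genes (0%) were called by edgeR, with 631 at an unadjusted p under 0.05, and DESeq2 also called 0. The lowest p was that of C1ql2, a synaptic protein of the dentate gyrus, with 5.76, 3.60, 11.1 and 37.4 CPM in the Lypd1 and Lmo3 spots and 25.1, 25.8, 28.9 and 30.6 CPM in the others (difference 2.27, SE 0.40, adjusted p = 0.206, edgeR). Against layer 2-3 spots 1 of 11845 (0.00844%) was called. This was Fibcd1 (chr2:31813290-31846005, minus strand), a receptor that marks the hippocampal field CA1, with 8.49, 10.3, 13.6 and 33.7 CPM in the Lypd1 and Lmo3 spots and 35.5, 41.9, 26.2 and 29.96 CPM in the layer 2-3 spots. The difference between the diet changes was 1.89 on the log2 scale (SE 0.33, adjusted p = 0.0175, edgeR). HF replicate 2 carried the high value, and 0, 4, 3 and 9 of the 180 spots were among the 180 highest of the hippocampus list in their section. The 9 spots are 5.0% of the chosen spots of HF replicate 2, beside 5.38% of all its spots. Without HF replicate 2 the difference was 1.08 (adjusted p = 0.863, edgeR) and without MF replicate 1 it was 1.82 (adjusted p = 1.0, edgeR), so neither passed.

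The diet calls rested on few sections. The total of 2 genes became 9 without MF replicate 1, 20 without MF replicate 2, 483 without HF replicate 1 and 45 without HF replicate 2. It was 0 when spots were thinned to 5000 UMIs, when spots were chosen again after thinning, with at least 3 neighbours of the same kind, or in deep spots alone, and Arc and Hcrt passed in 10 and 9 of 16 alternatives.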

How the data were processed

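Visium-FFPE sections of the brains of 2 MF and 2 HF offspring were analysed. Per the study's methods, reads were mapped with Space Ranger v2.0.0 against mm10, which is GRCm38. The deposited values are UMI counts, not normalized, of 19465 probe-targeted features in each tissue spot, beside its row and column on the array. Positions of genes come from GENCODE vM21 (19451 features matched by Ensembl identifier). A deposited table of spatial autocorrelation per feature was not used.

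Of 13470 spots, 18 lacked 500 UMIs or 250 genes and were left out, a limit taken from the study. The 7 genes that choose the Lypd1 and Lmo3 spots, the 31 gene lists and the tests were chosen with earlier results of these data known. UMIs were summed per section over the 180 spots, and sums are shown as CPM. Distance was counted in steps on the spot grid from the outer tissue edge, the array border included. The dorsal to ventral axis ran from the 100 highest hippocampus spots to the 100 highest hypothalamus spots. The side of this axis that held the median Lypd1 and Lmo3 spot was taken as lateral. Sums were compared by quasi-likelihood in edgeR 4.0.16 under R 4.3.3, after TMM and filterByExpr, with HF against MF unblocked and with section as a block between places. Spots of 1 section are not replicates. The methods were tested on simulated data.

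Genes were named by these rules: the 7 chosen genes; the 20 highest and 10 lowest ratios to the other spots at 20 CPM or more; in each test the 10 called genes with the largest change in each direction and separate sections (diet by place: by size alone); and list members. Dab1 and Hrh3 were chosen after their values were seen. Alternatives were DESeq2 1.42.0, library size as the sole scaling, all genes kept whatever their counts, spots thinned to 5000 UMIs with shallower ones left out, 120 or 240 spots per section, spots chosen again after thinning, spots with at least 3 neighbours of their kind, limits of 2 and 4 steps, a replicate block and each section left out. With 1 section left in a group, that section is assumed to vary like the others. Section totals were 34983708 to 90098381 UMIs.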

Additional observations from a re-analysis of the deposited data

Results flagged for a closer look

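Fibcd1 was flagged because the diet difference in the Lypd1 and Lmo3 spots differed from that in layer 2-3 spots of the same sections in a test of that difference, by 1.89 on the log2 scale (adjusted p = 0.0175, edgeR). It was higher in HF replicate 2 than in HF replicate 1 of the Lypd1 and Lmo3 spots, at 33.7 and 13.6 CPM. Over 10 alternatives the difference ranged from 1.08 to 2.69, and it passed in 5.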

How the results depend on the processing

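Counts of called genes moved with the setting, and the cause was not tested. In the Lypd1 and Lmo3 spots, 2 genes were called for diet, and 4 with DESeq2, 70 with no filter on low counts, 0 with spots thinned to 5000 UMIs, 0 with spots chosen again after thinning, 0 in spots with at least 3 neighbours of their kind, 1 with 120 spots per section, 0 in deep and 4 in superficial spots alone, and 9 to 483 without any 1 section. Deviations of sections with the same number correlated at -0.11 over genes, and the labels do not say that a number marks a shared litter or slide, so the numbers were not taken to pair the sections. A replicate block gave 19 calls, and a crossed replicate block, added after the data were seen, gave 18.

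The diet by place term against the other spots gave 0 calls, and 19 with no filter, 2 with thinned spots, 12 with 120 spots per section and 2 to 194 without any 1 section. In that test Hcrt had a difference of -2.23, which moved to 2.91 when HF replicate 1 was left out, and to -2.65 when HF replicate 2 was. Against layer 2-3 spots 1 call became 0 with DESeq2, 8 with no filter, 0 with 240 spots per section and 0 to 77 without any 1 section. For deep against superficial spots 834 calls became 219 with DESeq2, 245 with thinned spots, 387 with no section block, 125 with more than 2 steps as deep and 348 to 1029 without any 1 section, and Sla reversed to 0.083 at more than 2 steps. With the array border not taken as an edge, which was also added after the data were seen, there were 906 calls. The share of neighbours of the same kind was 37.5% on average when spots were chosen again after thinning. Depth limits HF replicate 1 most, where 121 of 180 spots reached 5000 UMIs.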

Other observations

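Other members of the potassium channel families of Kcng1 were also high or low in the Lypd1 and Lmo3 spots. Kcng3, Kcnf1 and Kcnv1, which like Kcng1 are silent alone and modify other channels, stood 1.28 ± 0.21, 1.08 ± 0.08 and 0.99 ± 0.07 (SD, n = 4 sections) above the other spots on the log2 scale. Kcng4, of the same subfamily as Kcng1 and Kcng3, stood 1.91 ± 0.32 below them at 3.64, 3.15, 4.26 and 4.11 CPM. Of 32 measured genes of these families 12 were higher, with Kcng1 of the rule among them, and 10 lower in all 4 sections. Their median was 0.04, and of all genes 20.8% were higher and 30.5% lower. By depth, Kcng3 was called higher in deep spots (0.68, adjusted p = 0.0130, edgeR) and Kcnv1 in superficial spots (-0.51, adjusted p = 0.000500, edgeR). Leaving out Kcng1, of 27 tested genes of these families 3 were called higher in deep and 3 in superficial spots, beside 4.35% and 3.77% of all genes.

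Of 38 measured receptors for neuromodulators and steroids 12 were higher and 10 lower than in the other spots in all 4 sections. Of 14 synaptotagmins 6 were higher, with Syt17 of the rule among them, and 6 lower. Of 13 regulators of apoptosis 1 was higher, Hrk itself, which the rule used, and 5 were lower. The shares over all genes were again 20.8% higher and 30.5% lower. Striatal genes had a median diet difference of 0.53 in the Lypd1 and Lmo3 spots, beside 0.07 in the other spots. Of 10 tested 9 were positive, beside 50.6% of all genes. By edgeR 7 had an unadjusted p under 0.05, as did 703 of all 11479 genes, and 0 were called. In their section 3, 1, 14 and 6 of the 180 spots were among the 180 highest of the striatum list. These are 1.67%, 0.56%, 7.78% and 3.33%, beside 5.0% to 5.63% of all spots, so HF replicate 1 alone was above that share. Adora2a, an adenosine receptor of striatal neurons, had 6.06, 3.60, 22.1 and 11.1 CPM. The part of striatal tissue in these values was not tested.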
